A study of Mus musculus with 10 samples.

Results

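The 32 genes described here encode enzymes of cholesterol synthesis and fatty acid synthesis, elongation and desaturation, together with the SREBP transcription factors that control these enzymes and the proteins that hold SREBP in check. They were taken as a named list, and all 32 were found among the 51717 genes of the transcript files. RNA was sequenced from CD45.2+ granulocyte-macrophage progenitors (GMPs) sorted from the bone marrow of mixed chimeras, in which irradiated CD45.1 hosts carry blood cells of 2 donors. WT cells were ROSA26 CreER+/-, and recent KO cells were Mpc2fl/fl; ROSA26 CreER+/-. Both groups were labelled C57Bl6/N and male, both carried CreER, and both received tamoxifen chow for 2 wk, so that Cre and tamoxifen were shared and only the floxed *Mpc2* alleles differed. CreER is driven from the ubiquitous ROSA26 locus, so deletion was not limited to GMPs. Each group had 5 samples, but 1 mouse gave each WT sample whereas 2 mice were pooled for each recent KO sample, so genotype and pooling cannot be told apart.

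Cytosolic acetyl-CoA is the starting carbon for both pathways. It reaches the cytosol largely as citrate exported from mitochondria, and pyruvate that enters through the mitochondrial pyruvate carrier is one source of that citrate. In the cholesterol branch, acetyl-CoA is built into mevalonate, isoprenoids, squalene, and sterols. In the fatty acid branch, it is carboxylated to malonyl-CoA and extended to palmitate, which elongases and desaturases then modify. SREBP2 mainly drives the sterol genes and SREBP1 the fatty acid genes. SCAP carries SREBP out of the endoplasmic reticulum when sterols are low, and INSIG proteins retain it there when sterols are high. Whether the loss of the carrier subunit MPC2 alters transcription of these genes is the question of the comparison.

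Samples held 14133706 to 19745405 estimated reads in WT and 14033776 to 19658346 in recent KO. *Mpc2* itself, in WT GMPs at 61.0, 111, 95.2, 117, and 60.9 normalized CPM (reads scaled to library size), was at 27.7, 17.1, 43.9, 37.0, and 35.0 CPM in recent KO. Its difference of -1.46 on the log2 scale (SE 0.24) passed the test (adjusted p = 0.0156), with no overlap between the groups. Without recent KO replicate 1 its adjusted p was 0.05, and its value there was -1.42. It also missed the threshold with a transcript length offset (adjusted p = 0.0741), robust dispersions (0.134), a replicate block (0.0577), and the limma fits on TPM (0.13 to 0.411), with the same direction in each. The labelled cell type was checked against its markers, and *Mpo*, *Elane*, and the 8 other GMP and granule genes together took 87800 to 124000 CPM in WT against 51900 to 89800 CPM in recent KO. That sum mainly follows *Mpo* and *Elane*, at means of 61000 and 24600 CPM in WT. Of the 10 genes, *Cd34* and *Kit* were higher in recent KO, with log2 differences of 0.25 and 0.08. *Cebpa* differed by -0.04 and *Fcgr3* by -0.65, and 0 of the 10 passed the test. Only *Fcgr3* of the 10 did not overlap between the groups, against 2.43% of all genes tested. It was at 357 to 456 CPM in WT against 153 to 318 CPM in recent KO. Sums for other lineages also differed, and none of the tested genes in the next 4 lists passed the test. Stem and lymphoid progenitor markers summed to 22.5 to 26.9 CPM in WT against 32.5 to 47.1 CPM in recent KO, with no overlap. Of these 6 genes only *Flt3* did not overlap by itself, against 2.43% of all genes tested. It was at 10.2 to 15.2 CPM in WT against 18.2 to 37.8 CPM in recent KO. Megakaryocyte markers summed to 8.63 to 17.1 CPM in WT, below each of the 5 recent KO samples, of which the highest reached 29.2 CPM. Of these 4 genes only *Pf4* did not overlap by itself, beside the same 2.43% of all genes tested. It was at 0.93 to 4.49 CPM in WT against 5.38 to 11.5 CPM in recent KO. Late neutrophil markers reached at most 77.4 CPM in a WT sample but 259 CPM in one of recent KO, and erythroid markers 20.1 and 90.8 CPM, with overlap of the groups for both. The part of these shifts in the values below was not tested. Markers of adipocytes, which make fatty acids at a high rate, were also summed. They came to 0.147 to 1.02 CPM in WT against 1.22 to 2.74 CPM in recent KO, with no overlap. Of these 5 genes only *Fabp4* was tested, and it did not pass. Its groups did not overlap, at 0.147 to 1.02 CPM in WT against 1.16 to 2.64 CPM in recent KO. *Lep* was at 0 in every sample. The part of these genes in the values below was not tested.

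In WT GMPs the 32 genes differed widely in TPM, the abundance that is corrected for transcript length and can be compared between genes. The median level of the 32 genes was 7.7 TPM, against 5.5 TPM for all genes tested. *Fdps*, which makes farnesyl diphosphate for sterols and protein prenylation, was highest at 208 to 303 TPM in the 5 samples. *Elovl1*, an elongase of very long saturated chains, followed at 134 ± 11.3 TPM (SD, n = 5), and *Ebp*, a sterol isomerase, at 62.9 ± 5.68 TPM. *Elovl5*, *Pmvk*, and *Acat2* came next at 33.8, 27.9, and 24.8 TPM. *Fdps* and *Elovl1* were the 2 genes above 100 TPM, and 10 genes were above 10 TPM.

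Most neighbours in that order could not be separated. The ranges of the WT samples overlapped for 25 of the 31 pairs of adjacent genes. Gaps lay below *Fdps*, below *Elovl1*, below *Ebp*, between *Acat2* and *Fasn*, between *Fads2* and *Acaca*, and above *Scd1*. The rate-limiting enzymes were not the most abundant: *Acaca*, the acetyl-CoA carboxylase that commits carbon to fatty acids, was at 1.24 ± 0.296 TPM, and *Sqle*, the squalene epoxidase, at 6.27 ± 1.6 TPM. *Scd1* stood apart from its relative *Scd2*, since the stearoyl-CoA desaturase transcripts were almost entirely *Scd2*, at 11.0 ± 1.57 TPM. *Scd1* had 0 to 7 estimated reads in a sample and was not tested.

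**Figure D1:**
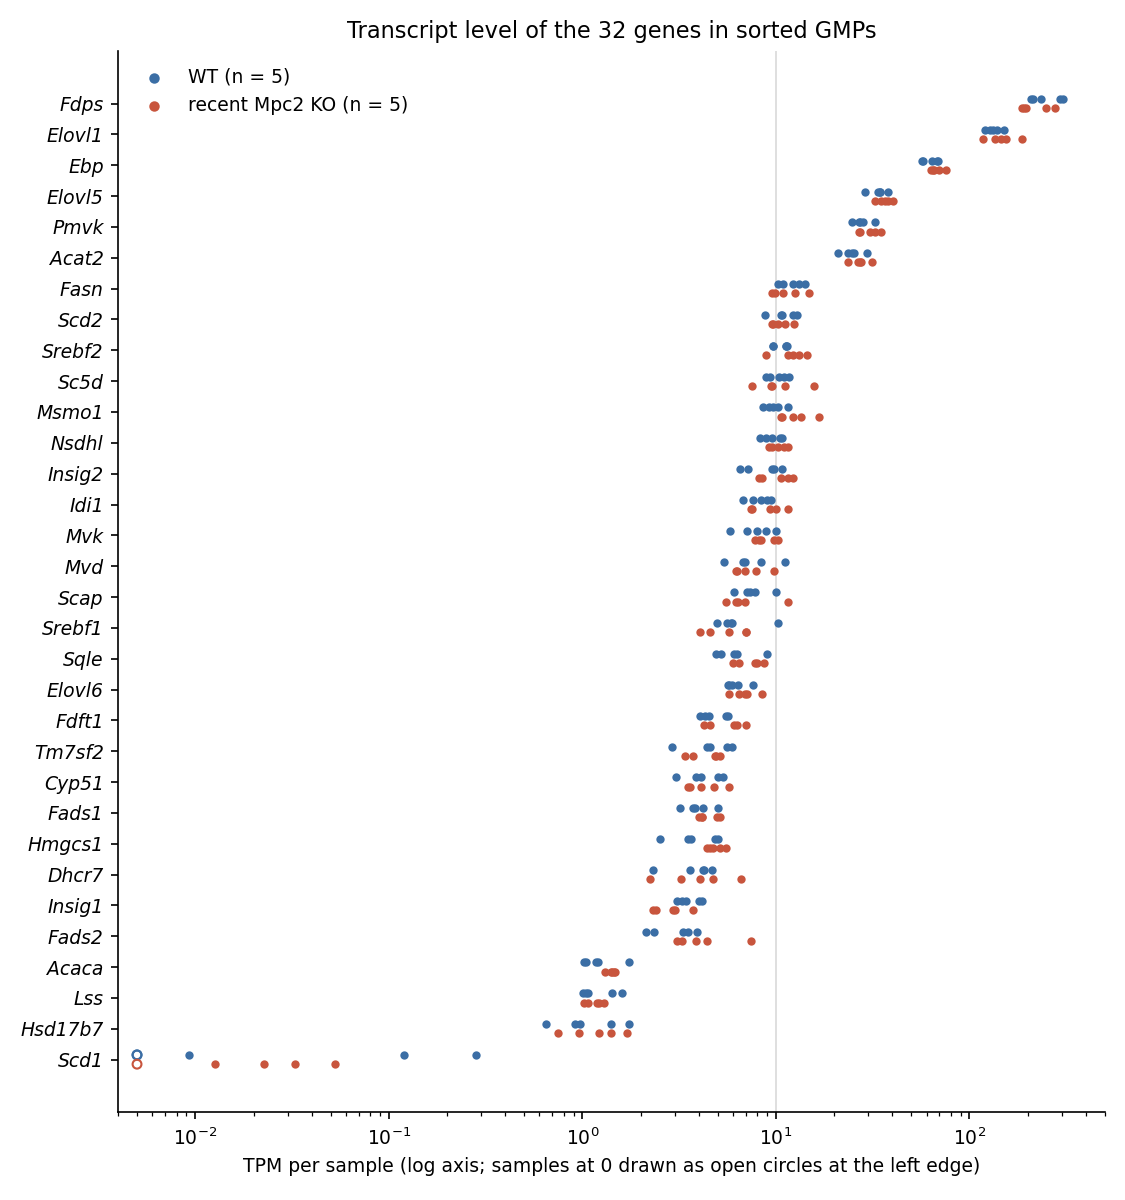
TPM of the 32 genes in each of the 5 WT and 5 recent KO samples on a log axis, with the genes ordered by their WT mean. *Fdps* and *Elovl1* lie above 100 TPM, most genes have means between 3 and 15 TPM in both groups, and *Scd1* is at or near 0.

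The length correction rests on the transcript models that Salmon chose, which matters for 2 genes in the order above. For *Fasn*, the fatty acid synthase, the retained-intron model Fasn-203 took 52.8% ± 9.1 of the TPM but 11.3% of the estimated reads in WT. Coding transcripts of *Fasn* held 35.4% of its TPM, which lowers its WT level from 12.2 to 4.31 TPM. For *Srebf2*, the retained-intron model Srebf2-205 took 60.2% ± 4.0 of the TPM in WT, and the coding level was 4.18 in place of 10.6 TPM. Read counts, on which the genotypes are compared gene by gene below, do not depend on that correction. The ratios within a sample, among them *Srebf1* to *Srebf2*, were taken from TPM and do depend on it.

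No sterol or fatty acid gene was called different between recent KO and WT GMPs, and most estimates were close to no change. By edgeR's quasi-likelihood test with adjustment over all 12381 genes tested, 0 of 31 passed an adjusted p of 0.05, against 0.331% of all genes tested (41 genes). The smallest adjusted p was 0.298, for *Insig1*. DESeq2 and limma also called 0 of these genes. At an unadjusted p under 0.05 there were 2 of 31 (6.45%), *Insig1* and *Msmo1*, against 10.2% of all genes tested, while DESeq2 gave 3 and limma on log2(TPM + 1) gave 1. No gene of the 31 had samples that did not overlap between the groups, against 2.43% of all genes tested. The median log2 difference was 0.08, with 20 genes higher and 11 lower in recent KO (23 higher with scaling to library size only), and the median over all genes tested was -0.002.

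The intervals limit how large a difference could have been missed. The 95% confidence interval of the fold change lay inside 1.5-fold in either direction for 29 of 31 genes and inside 2-fold for all 31. *Insig1* and *Fads2* were the 2 whose intervals reached past 1.5-fold. In bulk RNA, fewer cells of a type and less RNA per cell cannot be told apart, so these values describe the sorted population as a whole.

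**Figure D2:**
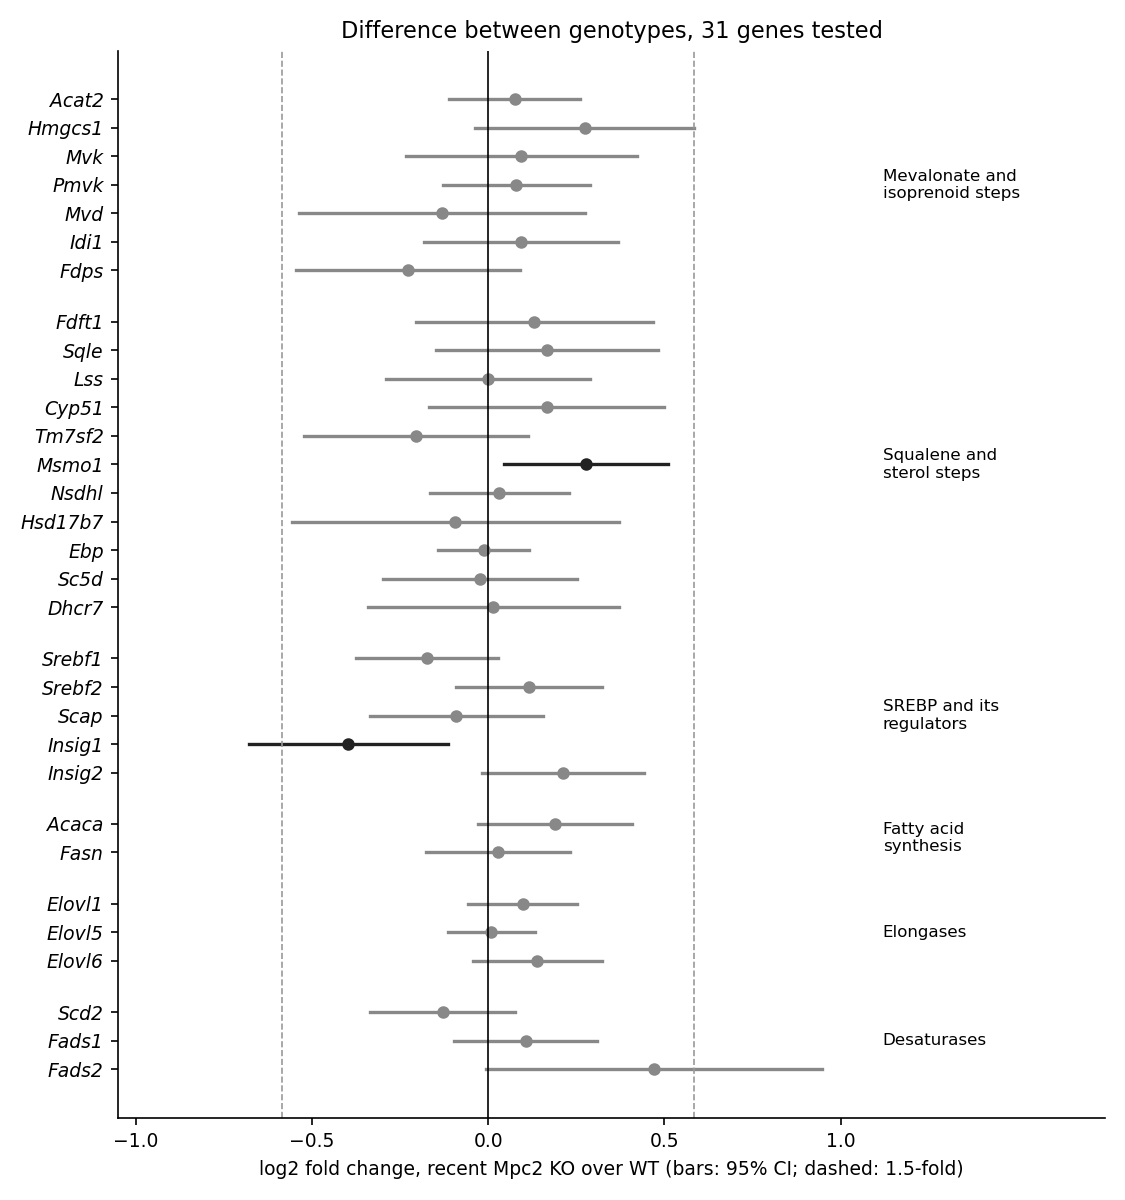
Log2 fold change between the groups, recent KO over WT, for the 31 genes tested, grouped by role, with 95% confidence intervals from edgeR. Black marks *Insig1* and *Msmo1*, the 2 genes with an unadjusted p under 0.05, and dashed lines mark 1.5-fold. The intervals of 29 genes lie inside those lines.

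The mevalonate branch showed small differences in both directions. None of its 7 genes passed the test, 5 were higher and 2 lower in recent KO, and the median log2 difference was 0.08. *Hmgcs1*, the cytosolic HMG-CoA synthase at the entry of the pathway, had the largest positive value. It was at 16.9, 13.6, 10.6, 20.2, and 13.2 CPM in WT and at 17.4, 18.5, 20.1, 16.6, and 17.2 CPM in recent KO. All 5 recent KO samples lay above the WT mean of 14.9 CPM, but WT replicate 4 was the highest sample of the 10, and the groups overlapped. The log2 difference was 0.27 (SE 0.14, unadjusted p = 0.0796, adjusted p = 0.545).

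*Fdps* had the largest negative value of the branch. It was at 330, 265, 275, 404, and 278 CPM in WT and at 366, 282, 226, 220, and 231 CPM in recent KO. Recent KO replicates 3, 4, and 5 were below every WT sample, whereas replicates 1 and 2 were within the WT range. Its log2 difference was -0.23 (SE 0.15, adjusted p = 0.649). Because *Fdps* made up 53.2 to 59.2% of the summed TPM of the 18 cholesterol genes in WT and 45.4 to 55.2% in recent KO, sums over the branch follow this gene. The summed TPM was 450.0 ± 64.2 in WT and 437 ± 53.3 in recent KO, and without *Fdps* it was 199 ± 20.8 and 218 ± 17.7.

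The other 5 genes of the branch differed less. *Acat2*, the cytosolic acetoacetyl-CoA thiolase, was at 62.7 ± 5.84 CPM in WT against 66.1 ± 7.03 CPM in recent KO. *Mvk* and *Pmvk*, the kinases that phosphorylate mevalonate, had log2 differences of 0.09 and 0.08. *Mvd*, which decarboxylates mevalonate diphosphate, was spread widely in WT, from 11.0 to 23.1 CPM, with replicate 4 far above the others. *Idi1*, the isopentenyl diphosphate isomerase, was at 29.2 ± 3.73 and 31.2 ± 6.01 CPM.

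Of the 11 genes from squalene to cholesterol, none passed the test, 6 were higher and 5 lower in recent KO (*Lss*, *Ebp*, and *Sc5d* among the lower ones turned higher with scaling to library size only, and with a transcript length offset *Ebp* and *Hsd17b7* turned higher and *Cyp51* lower), and the median log2 difference was 0.02. *Msmo1* (GRCm38 chr8:64718139-64733792, minus strand), the methylsterol monooxygenase that starts removal of the C-4 methyl groups, was the gene with the smallest p of this set. It was at 22.5, 20.6, 20.8, 23.2, and 21.7 CPM in WT and at 33.3, 25.8, 28.5, 22.6, and 21.8 CPM in recent KO. Recent KO replicates 1, 2, and 3 were above every WT sample, and replicates 4 and 5 lay inside the WT range. This gave a log2 difference of 0.28 (SE 0.11, unadjusted p = 0.0231, adjusted p = 0.401), and without recent KO replicate 1 it was 0.18. *Gm47551*, an antisense gene with 95.8% identity to *Msmo1* over 165 bases, held a mean of 49.6 estimated reads in WT and 44.7 in recent KO, and adding them changed no call.

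Other enzymes of sterol demethylation had smaller values. *Cyp51*, the lanosterol demethylase that acts earlier, was at 17.4 ± 2.58 CPM in WT against 19.5 ± 4.85 CPM in recent KO, a log2 difference of 0.17 that was -0.03 with the length offset. *Nsdhl* and *Hsd17b7*, which act after *Msmo1* in C-4 demethylation, had log2 differences of 0.03 and -0.09. *Hsd17b7* was the lowest tested gene of the set, with 49 to 103 estimated reads in a sample, and its interval of 0.679-fold to 1.29-fold was correspondingly wide.

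At the start of the sterol steps, *Fdft1*, the squalene synthase, had a log2 difference of 0.13, *Sqle* one of 0.17, and *Lss*, the lanosterol synthase, one of -0.001. *Tm7sf2*, a sterol C-14 reductase, was at 5.65 ± 1.02 CPM in WT against 4.93 ± 0.398 CPM in recent KO, and every recent KO sample was below the WT mean. Near the end of the pathway, *Ebp* was measured with little spread, at 115 ± 8.94 and 113 ± 1.71 CPM, with an interval of 0.906-fold to 1.08-fold. *Sc5d*, the lathosterol oxidase, and *Dhcr7*, which makes the final reduction to cholesterol, had log2 differences of -0.02 and 0.02. Parts of *Fdft1*, *Cyp51*, and *Tm7sf2* overlap *Ctsb*, *Akap9*, and *Vps51* in the annotation, *Vps51* on the same strand, so some reads of these genes could belong to the neighbour.

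**Figure D3:**
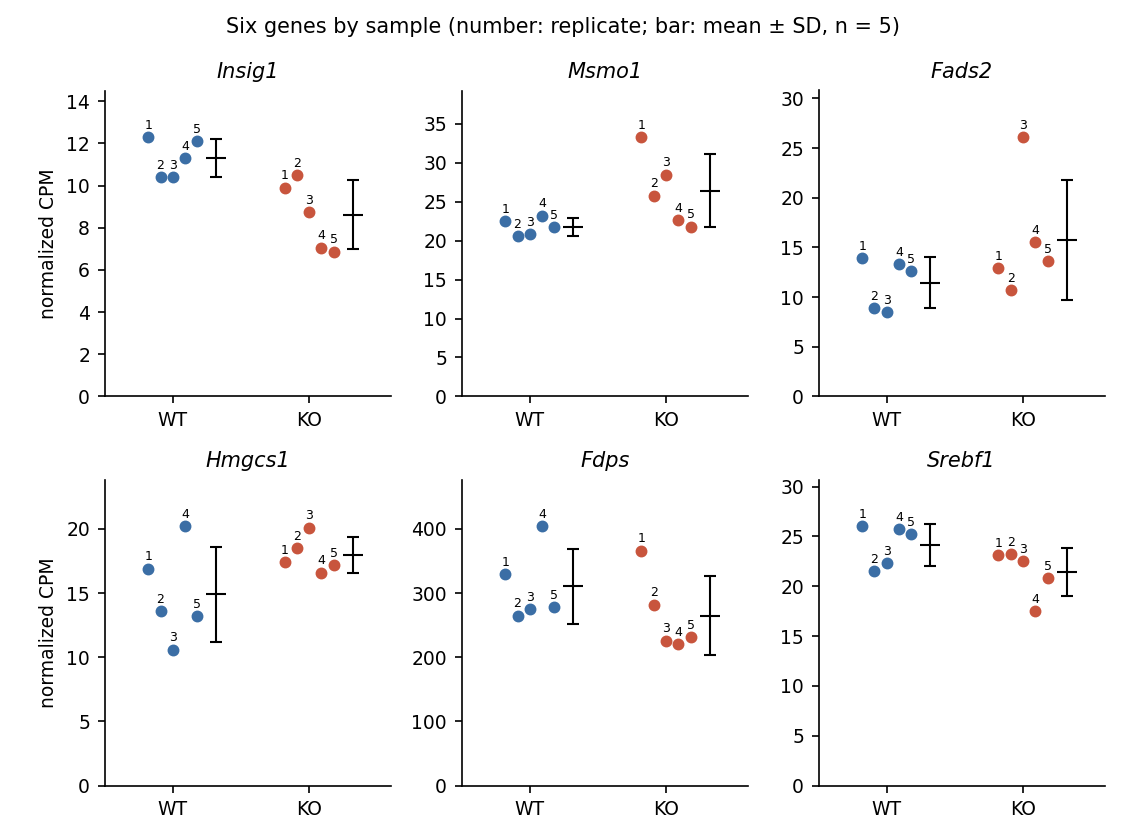
Normalized CPM of *Insig1*, *Msmo1*, *Fads2*, *Hmgcs1*, *Fdps*, and *Srebf1* in each sample, with the replicate number at each point and the mean ± SD of 5 samples beside each group; axes start at 0. The groups overlap for all 6 genes, and recent KO replicates 4 and 5 are the lowest of their group for *Insig1*, *Msmo1*, *Hmgcs1*, and *Srebf1*.

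Among the SREBP factors and their regulators, *Insig1* was lower in recent KO at an unadjusted p under 0.05, and none of the 5 passed the adjusted test. *Insig1* (GRCm38 chr5:28071363-28078662, plus strand) encodes the sterol-dependent anchor of SCAP and is itself an SREBP target. It was at 12.3, 10.4, 10.4, 11.3, and 12.1 CPM in WT and at 9.91, 10.5, 8.75, 7.06, and 6.86 CPM in recent KO. Replicates 4 and 5 of recent KO were the lowest, and replicate 2 reached into the WT range, so the groups overlapped by this sample. On the log2 scale the difference was -0.40 (SE 0.13, unadjusted p = 0.0094, adjusted p = 0.298), or 0.760-fold with an interval of 0.625-fold to 0.924-fold.

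*Insig2*, the second anchor, is regulated separately from *Insig1* and had a value in the other direction. It was at 13.4, 14.8, 12.6, 12.0, and 13.2 CPM in WT and at 15.3, 15.6, 12.0, 17.7, and 16 CPM in recent KO. All recent KO samples but replicate 3 were above every WT sample. The log2 difference was 0.21 (SE 0.11, unadjusted p = 0.0667, adjusted p = 0.525).

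The factors themselves, and the escort protein SCAP, differed less. *Srebf1* was at 26.0, 21.5, 22.3, 25.7, and 25.2 CPM in WT and at 23.1, 23.2, 22.5, 17.5, and 20.8 CPM in recent KO. All recent KO samples were below the WT mean of 24.2 CPM, replicates 4 and 5 below every WT sample, and the log2 difference was -0.17 (SE 0.09, adjusted p = 0.56). *Srebf2* was at 40.8 ± 2.0 CPM in WT against 44.2 ± 6.87 CPM in recent KO, with replicate 3 highest at 54.4 CPM. *Scap* was at 27.4 ± 3.86 and 25.7 ± 3.38 CPM, and WT replicate 1 was low at 20.8 CPM.

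Ratios of related transcripts within a sample do not depend on how samples are scaled, and 4 of them were tested by exact permutation, two-sided, which allow no p below 0.00794 here. The log2 ratio of *Insig1* to *Insig2* TPM was -1.2, -1.57, -1.8, -0.933, and -0.845 in WT and -1.49, -1.73, -1.47, -2.28, and -2.19 in recent KO. The mean difference of -0.56 was the largest relative to its spread (exact permutation p = 0.0794, adjusted over the 4 ratios p = 0.296). Replicates 4 and 5 of recent KO were below every WT sample, and the other 3 were within the WT range. The log2 ratio of *Srebf1* to *Srebf2* was -0.753 ± 0.352 in WT and -1.1 ± 0.459 in recent KO (exact permutation p = 0.222, adjusted p = 0.296). It passed the adjusted test only without recent KO replicate 1 (adjusted p = 0.0317).

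*Srebf1* is read from separate starts, which give SREBP-1a, the stronger activator common in dividing cells, and SREBP-1c, the form typical of liver and fat. The annotation does not use these names, so *Srebf1-201* was taken as 1a and *Srebf1-207* as 1c from their first exons. *Srebf1-203*, with 3.47% of *Srebf1* reads in WT and 8.35% in recent KO, was assigned to neither and left out of the share. By this assignment the 1a form was the main one in the GMPs, with 89.7% to 98.3% of the 1a plus 1c TPM in WT and 82.5% to 93.5% in recent KO. The difference between the means of 93.8% ± 3.61 and 90.3% ± 4.49 was within the spread of the samples (exact permutation p = 0.222, adjusted p = 0.296). The 1c share rested on 4.2 to 48.1 estimated reads in a sample, against 244.6 to 487.4 for 1a. The *Scd2* share of *Scd1* plus *Scd2* TPM was 99.3% ± 0.955 in WT and 99.8% ± 0.166 in recent KO (exact permutation p = 0.437), so the near absence of *Scd1* was common to both groups.

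**Figure D4:**
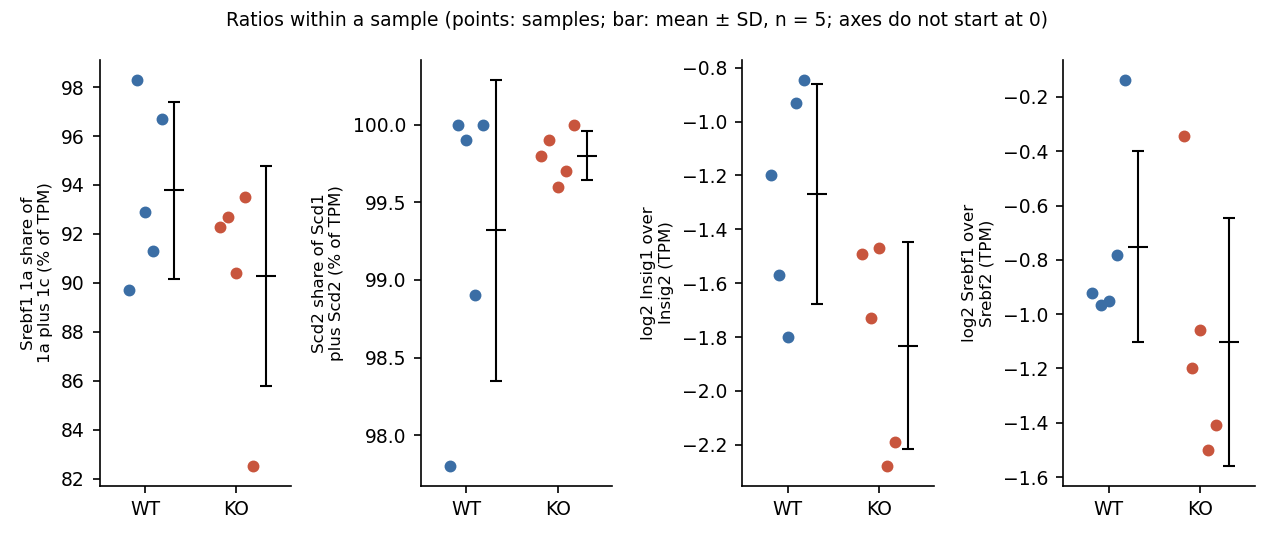
Ratios within each sample for *Srebf1* 1a against 1c, *Scd2* against *Scd1*, *Insig1* against *Insig2*, and *Srebf1* against *Srebf2*, from TPM, with the mean ± SD of 5 samples beside each group. The groups overlap in every panel, and the lowest 2 *Insig1* to *Insig2* ratios are recent KO replicates 4 and 5.

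The promoter windows of these genes are shown because the data bear on which starts were used and on the 2 genes of lowest p. RefSeq windows on GRCm38, each 250 bases before to 50 after an annotated start, were at hand for 26 of the 32 genes and not for *Fdps*, *Fdft1*, *Sqle*, *Scd1*, *Scd2*, and *Fads1*. Both strands were searched for the sterol regulatory element form TCACNCCAC and for the CCAAT box, at which the SREBP partner NF-Y binds, and no match of one overlapped a match of the other in the windows printed. Capitals in the windows mark matches, and ATTGG is a CCAAT box on the other strand. The first line is the 1a window of *Srebf1*, the main start in GMPs, and the second is the 1c window, and both are on the minus strand of chromosome 11. They are followed by *Insig1* on the plus strand of chromosome 5, *Msmo1* on the minus strand of chromosome 8, and *Hmgcs1* on the plus strand of chromosome 13.
*Srebf1* 1a start, chr11:60220578-60220877: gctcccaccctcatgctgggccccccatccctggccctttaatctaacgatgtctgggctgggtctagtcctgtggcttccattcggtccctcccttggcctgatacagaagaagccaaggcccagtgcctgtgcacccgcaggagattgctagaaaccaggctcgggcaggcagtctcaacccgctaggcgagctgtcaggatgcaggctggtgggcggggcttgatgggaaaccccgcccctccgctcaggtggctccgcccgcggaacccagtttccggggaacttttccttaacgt
*Srebf1* 1c start, chr11:60210422-60210721: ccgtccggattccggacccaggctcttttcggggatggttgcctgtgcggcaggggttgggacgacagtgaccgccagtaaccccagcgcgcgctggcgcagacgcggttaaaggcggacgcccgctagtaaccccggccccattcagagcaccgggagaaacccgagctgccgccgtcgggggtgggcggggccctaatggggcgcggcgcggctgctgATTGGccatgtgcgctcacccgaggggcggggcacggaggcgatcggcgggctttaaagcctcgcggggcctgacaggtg
*Insig1*, chr5:28071162-28071461: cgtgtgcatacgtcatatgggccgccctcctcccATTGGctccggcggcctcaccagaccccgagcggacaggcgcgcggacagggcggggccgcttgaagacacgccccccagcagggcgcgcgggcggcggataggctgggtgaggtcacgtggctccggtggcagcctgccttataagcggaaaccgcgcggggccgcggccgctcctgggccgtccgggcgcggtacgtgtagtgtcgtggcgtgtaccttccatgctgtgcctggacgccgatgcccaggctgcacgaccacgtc
*Msmo1*, chr8:64733529-64733828: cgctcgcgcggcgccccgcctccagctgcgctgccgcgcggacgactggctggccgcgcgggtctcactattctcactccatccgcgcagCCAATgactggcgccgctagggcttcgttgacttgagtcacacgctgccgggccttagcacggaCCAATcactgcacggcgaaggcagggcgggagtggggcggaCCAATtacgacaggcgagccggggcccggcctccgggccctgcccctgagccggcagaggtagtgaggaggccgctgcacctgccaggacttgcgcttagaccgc
*Hmgcs1*, chr13:119690101-119690400: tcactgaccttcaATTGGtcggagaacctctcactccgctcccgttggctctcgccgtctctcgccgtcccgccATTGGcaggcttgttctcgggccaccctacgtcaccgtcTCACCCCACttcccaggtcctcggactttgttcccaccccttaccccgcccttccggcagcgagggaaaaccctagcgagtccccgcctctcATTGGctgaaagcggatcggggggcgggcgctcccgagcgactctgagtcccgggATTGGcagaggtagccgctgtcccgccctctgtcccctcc

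The element TCACNCCAC occurred in 1 of the 35 windows of these genes (2.86%), that of *Hmgcs1*, and in 1.24% of all 32851 windows in the table. A CCAAT box occurred in 22 of the 35 windows (62.9%), from 21 genes, against 37.4% of all windows. *Hmgcs1* held 4 CCAAT boxes, *Msmo1* held 3, *Insig1* and the 1c window of *Srebf1* held 1 each, and the 1a window held 0. The GC box CCGCCC, not marked in capitals, occurred in 74.3% of the 35 windows and 35.7% of all windows. These are matches of letters in a window and not sites of binding.

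In the fatty acid branch, 7 of the 8 tested genes were higher in recent KO (*Fasn* among them turned lower in the limma fits and once transcript length was an offset), and none passed the test. *Acaca* was at 11.6, 13.3, 12.5, 11.8, and 13.0 CPM in WT and at 15.8, 15.5, 15.2, 11.8, and 12.7 CPM in recent KO. Replicates 1, 2, and 3 of recent KO were above every WT sample, and replicates 4 and 5 were within the WT range. Its log2 difference was 0.19 (SE 0.10, adjusted p = 0.554). *Fasn* was at 50.2 ± 4.26 CPM in WT against 51.1 ± 6.69 CPM in recent KO, with an interval of 0.885-fold to 1.17-fold.

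The elongases were among the most tightly measured genes. *Elovl5*, which extends polyunsaturated chains, was at 109 ± 6.65 CPM in WT against 109 ± 4.03 CPM in recent KO, and its interval of 0.923-fold to 1.10-fold was the narrowest of the 31 genes on the log2 scale. *Elovl1* had a log2 difference of 0.10 (SE 0.07). Its highest sample was recent KO replicate 2 at 233 CPM. *Elovl6*, which extends palmitate to stearate, had a log2 difference of 0.14 (SE 0.09), and recent KO replicate 3 at 27.7 CPM was above all other samples.

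Among the desaturases, *Fads2* (GRCm38 chr19:10062765-10101746, minus strand), the delta-6 desaturase that opens polyunsaturated fatty acid synthesis, had the largest difference of all 31 genes, and the value rested largely on 1 sample. It was at 13.9, 8.87, 8.49, 13.3, and 12.6 CPM in WT and at 12.9, 10.7, 26.1, 15.5, and 13.6 CPM in recent KO. Replicate 3 of recent KO was higher than every other sample, replicate 4 was also above the WT range, and replicates 1, 2, and 5 were within it. This gave a log2 difference of 0.47 (SE 0.22, unadjusted p = 0.0522, adjusted p = 0.494), and without recent KO replicate 3 it was 0.21. That sample also had the lowest summed level of GMP and granule markers, 51900 CPM, and the highest of erythroid markers, 90.8 CPM, and their part in the *Fads2* value was not tested. *Fads1*, the delta-5 desaturase of the same gene cluster, was at 15.6 ± 1.43 and 16.8 ± 1.6 CPM. *Scd2* was at 75.3 ± 7.33 CPM in WT against 68.8 ± 9.28 CPM in recent KO, a log2 difference of -0.13, opposite in sign to the rest of the branch.

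The sterol genes varied together from sample to sample, within both groups. In WT, replicates 1 and 4 were each among the 2 highest of their group for 16 of the 18 cholesterol genes and were above the WT mean for 17, with median log2 deviations of 0.14 and 0.15. WT replicates 2, 3, and 5 were below that mean, with medians from -0.14 to -0.12. In recent KO, replicate 1 was the highest of its group for 11 of the 18 genes, with a median of 0.27. Replicates 4 and 5 had medians of -0.11 and -0.13 and were each among the 2 lowest for 14 of the 18. Both lay below the other 3 recent KO samples for 11 of the 18 cholesterol genes, for 3 of the 5 SREBP genes (*Srebf1*, *Scap*, and *Insig1*), and for 3 of the 8 fatty acid genes (*Acaca*, *Fasn*, and *Fads1*). By chi-square per gene between samples, replicates 4 and 5 were also the most alike pair of recent KO, at 6.8 against 14.7 to 46.1. In WT, replicates 1 and 4 were the least alike pair, at 30.3. The share of all tested genes with either pattern was not counted, so neither is shown to be particular to these genes.

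This spread within groups can be set beside the median difference between them, 0.05 on the log2 scale over the 18 genes. The samples' medians over the 18 genes ran from -0.14 to 0.15 in WT and from -0.13 to 0.27 in recent KO. The fatty acid genes moved less, with medians from -0.10 to 0.07 in WT and from -0.004 to 0.225 in recent KO. Replicates 3, 4, and 5 of recent KO also carried the most erythroid marker RNA, 90.8, 69.6, and 54.9 CPM against 4.41 to 20.1 in the other 7 samples. Cell cycle genes, at 1500 to 1600 CPM in WT against 1550 to 1650 CPM in recent KO, varied less. The part of either in the sterol values was not tested.

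**Figure D5:**
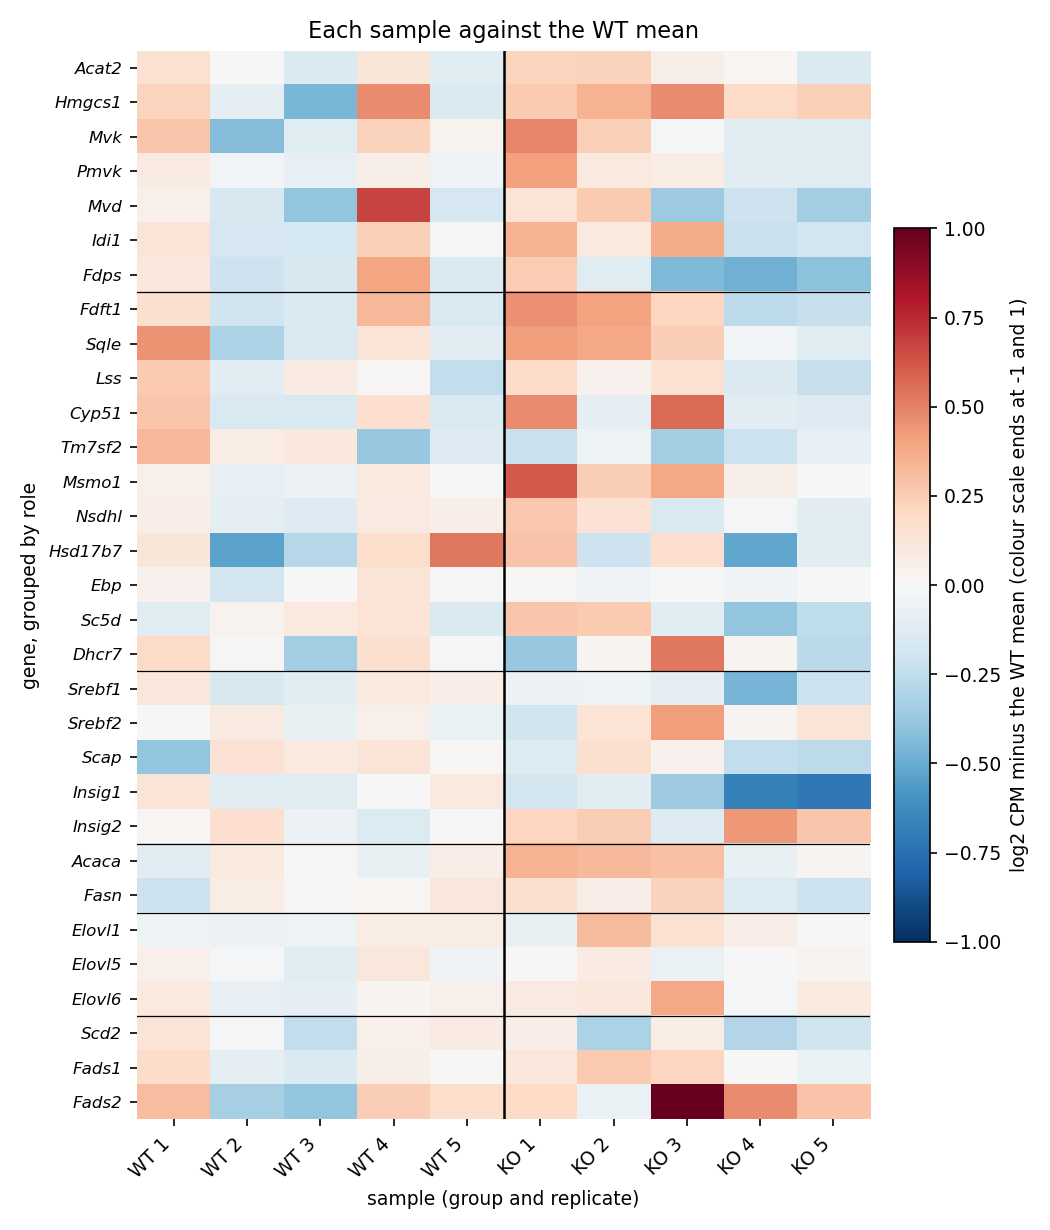
Log2 normalized CPM of each of the 31 genes in each sample minus the WT mean of that gene, with genes grouped by role and a vertical line between the groups. Columns WT 1, WT 4, and KO 1 are mostly above the WT mean in the cholesterol genes at the top, and columns KO 4 and KO 5 are mostly below it; *Fads2* in KO 3 lies beyond the end of the colour scale.

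Other genes of these pathways were followed from a separate list of 76 genes, of which 61 were tested. By edgeR 0 of 61 passed the adjusted threshold, as with DESeq2 and limma, and 11 had an unadjusted p under 0.05 (18%, against 10.2% of all genes tested), 6 higher and 5 lower in recent KO. Groups did not overlap for 2 of the 61 (3.28%), against 2.43% of all genes tested. The pair was *Nr1h2*, which encodes the oxysterol receptor LXR beta, and *Apoe*, a lipid carrier protein and LXR target. *Nr1h2* was at 36.2 to 43.2 CPM in WT against 31.3 to 35.9 CPM in recent KO, a log2 difference of -0.25 (SE 0.07, adjusted p = 0.215). *Apoe* was at 23.7 to 56.8 CPM in WT against 59.8 to 75.0 CPM in recent KO, a log2 difference of 0.55 (SE 0.18, adjusted p = 0.281). *Apoe* is also a macrophage transcript, and the macrophage markers *C1qa*, *C1qb*, and *C1qc* passed the test as higher in recent KO. *Adgre1* and *Cd68* of the same list had log2 differences of -0.39 and -0.20 and did not pass (adjusted p = 0.569 and 0.364). The sum of the 8 macrophage genes, of which *Cd68* was the most abundant, ranged from 95.2 to 116 CPM in WT against 103 to 131 CPM in recent KO. The part of these markers in the *Apoe* value was not tested.

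The values of *Soat1* and *Mylip*, genes of cholesterol storage and uptake, were lower in recent KO, and neither passed the test. *Soat1*, which esterifies cholesterol, was at 37.5 ± 5.68 CPM in WT against 29.1 ± 3.26 CPM in recent KO (adjusted p = 0.219). *Mylip*, an LXR-induced ligase that degrades lipoprotein receptors, had a log2 difference of -0.52 (SE 0.20, adjusted p = 0.401).

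Genes that supply or use fatty acids made up the rest. *Acss2*, which makes cytosolic acetyl-CoA from acetate, was at 3.06 ± 0.595 CPM in WT against 4.48 ± 0.765 CPM in recent KO, a log2 difference of 0.55 (SE 0.18, adjusted p = 0.298). Its 5 recent KO samples were above the WT mean, and the groups overlapped. *Hacd1* and *Hsd17b12*, which act in the elongation cycle beside the ELOVL enzymes, had log2 differences of 0.21 and 0.14. *Dgat2*, which makes triglyceride, had one of -0.76 (SE 0.29, adjusted p = 0.397). It was at 8.91, 11.1, 8.85, 21.2, and 8.98 CPM in WT, with replicate 4 far above the others. In recent KO it was at 9.56, 10.3, 3.96, 5.24, and 5.98 CPM. Replicates 1 and 2 of recent KO were within the WT range, and replicates 3, 4, and 5 were below every WT sample.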

How the data were processed

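The authors sorted CD45.2+ GMPs, made libraries with the SMARTseq V4 kit, and estimated transcript abundance with Salmon 1.5.1 on Gencode M27. The deposited files hold Salmon's estimated counts per transcript, not normalized, and TPM, which the authors' tool scaled for length and to a fixed total. A deposited table of the authors' own DESeq2 comparison (mean signal, log2 fold change, standard error, test score, p-value) was not used. No further filter on reads is given in the sources used here.

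Transcripts were matched on unversioned Ensembl identifiers to GENCODE M21 on GRCm38, and 137161 of 140789 (97.4%) matched. All positions are from that build. Estimated counts were summed per gene and rounded. Genes kept by filterByExpr (minimum count 10) were tested with edgeR 4.0.16 by its quasi-likelihood test, after TMM scaling and with genotype as the only term. P-values were adjusted by Benjamini-Hochberg over all 12381 genes at a threshold of 0.05. Intervals are 95%, levels are normalized CPM with SD, and differences are log2 values of recent KO minus WT. A count of 3 corresponds to 0.147 to 0.233 CPM. Intervals and such limits cover counting error or the spread of these samples only, since amplified cDNA carried no molecular identifiers. Ratios within samples were compared by exact permutation tests. Python 3.11.15 and R 4.3.3 were used. Near-identical gene copies were found with BLAST 2.17.0 (95% identity over 50% of the copy). The test was checked on simulated counts, with changed genes drawn from all genes tested. At the same threshold it recovered 42% of 100 genes changed 1.5-fold and 74% of 100 changed 2-fold.

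All 32 genes were named, as were *Mpc2*, the other pathway genes with an adjusted p under 0.05 or else the 10 of smallest unadjusted p under 0.05, and markers with an adjusted p under 0.05. Some genes that this rule names entered every test and count but are not reported here. The genes and lists were chosen with earlier results of these data known. The labels name biological replicates. No pair of samples held identical values, and all counted as separate.

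Alternatives were other scalings (RLE, upper quartile, library size), other filters (none, or a mean count of 50 or more), an offset for transcript length, robust estimation of dispersions, a block for the replicate number, DESeq2 1.42.0, limma 3.58.1 on log2(TPM + 1) or log2(TPM + 0.1) for a mean TPM of 1 or more or without a filter, summed near-identical copies, estimated counts in place of TPM for the ratios, and leaving out each sample. Levels from coding transcripts alone were added after the data were seen.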

Additional observations from a re-analysis of the deposited data

Results flagged for a closer look

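Each gene's 5 samples per group were searched for a sample far from the rest by Dixon's criterion (gap over range above 0.71). Of 64 groups searched, 2 held such a sample, and about 1 in 20, or 3.2 groups, would by chance. *Scap* in WT replicate 1 was at 20.8 CPM, and the other 4 WT samples lay at 27.4 to 30.0 CPM. *Elovl6* in recent KO replicate 3 was at 27.7 CPM, and the other 4 lay at 21.1 to 22.8 CPM. The high *Fads2* value of that same sample did not pass the criterion.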

How the results depend on the processing

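In all 23 alternative fits, including those without 1 sample, 0 of the tested sterol and fatty acid genes passed an adjusted p of 0.05, while the calls over all genes ran from 13 to 206 (91 without recent KO replicate 2, from 41). The number of these genes at an unadjusted p under 0.05 ran from 1 to 6. Of the 76 other pathway genes, 1 (*Apoe*) passed without a filter on low counts. *Mpc2* kept its direction but missed the threshold with a length offset (-1.398, adjusted p = 0.0741), with robust dispersions (-1.463, 0.134), with the replicate block (-1.463, 0.0577), and with limma on log2(TPM + 1) (-1.353, 0.13), log2(TPM + 0.1) (-1.375, 0.138), and log2(TPM + 1) unfiltered (-1.353, 0.411). Without single samples it ran from -1.602 to -1.306.

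Same-numbered WT and recent KO samples did not deviate together (Pearson's r across genes from -0.177 to 0.0576, and 0 of the 5 recent KO samples correlated best with its own number). This check showed no pairing by number, but a weak effect shared by such samples could give the same values. No source used here says what the numbers mark. The replicate block called 20 genes in all. Some sterol and fatty acid genes turned sign under a setting other than leaving out a sample, and the cause was not tested. *Lss* (main -0.001) was at 0.002 with RLE, 0.017 with upper quartile, 0.067 with library size only, 0.002 with a mean count of 50 or more, and 0.004 with the block. *Ebp* (-0.013) was at 0.004 with upper quartile, 0.059 with library size, 0.042 with the length offset, and 0.104, 0.105, and 0.104 with the limma fits in the order above. *Hsd17b7* (-0.094) was at 0.045 with the length offset and 0.054, 0.102, and 0.054 with limma, and *Sc5d* (-0.024) at 0.047 with library size and 0.023, 0.022, and 0.023 with limma. *Fasn* (0.027) was at -0.149 with the length offset and -0.078, -0.084, and -0.078 with limma, *Cyp51* (0.166) at -0.026 with the length offset, and *Dhcr7* (0.015) at -0.01 with the block. The *Scd2* share difference (0.458 percentage points) was -0.0506 from estimated counts and -0.112 from coding transcripts, an alternative added after the data were seen.

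Leaving out single samples turned the sign of 11 genes, which ranged from -0.015 to 0.17 (*Mvk*), -0.015 to 0.127 (*Pmvk*), -0.23 to 0.069 (*Mvd*, above 0 without WT replicate 4), -0.058 to 0.071 (*Lss*), -0.032 to 0.077 (*Nsdhl*), -0.211 to 0.059 (*Hsd17b7*), -0.056 to 0.02 (*Ebp*), -0.108 to 0.056 (*Sc5d*), -0.149 to 0.098 (*Dhcr7*), -0.028 to 0.083 (*Fasn*), and -0.019 to 0.038 (*Elovl5*). The *Srebf1* to *Srebf2* ratio difference ran from -0.542, without recent KO replicate 1 and past the threshold, to -0.198. Depth limits the 1c form of *Srebf1*, *Scd1*, and *Hsd17b7* most.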
